A study of Homo sapiens with 12 samples.

Results

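The genes described here encode the machinery of mitochondrial respiration and its main transcriptional regulators: nuclear-encoded subunits of respiratory complexes I to V, cytochrome c, the enzymes of the tricarboxylic acid (TCA) cycle, the pyruvate dehydrogenase complex, and PPARGC1A (PGC-1 alpha) with ESRRA, NRF1 and TFAM. They were chosen by name, through current or older symbols, and each was read from a probe set annotated with a single gene symbol, taking the probe set with the highest mean over the 12 arrays where a gene had several. Of the 53 genes listed, 49 were found among the 18404 genes of the arrays: 4 regulators, 13 genes of complex I, 3 of complex II, 5 of complex III with cytochrome c, 7 of complex IV, 5 of complex V, 8 of the TCA cycle and 4 of pyruvate dehydrogenase. NDUFA4, SDHB, UQCRFS1 and FH were not analysed here, and neither were the 13 subunits encoded by mitochondrial DNA.

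The arrays profiled total RNA of A375 (A375p by its source label) and A2058, established human melanoma lines that both carry the BRAF V600E allele, after vemurafenib, an inhibitor of the mutant BRAF kinase, or after DMSO, its solvent. The 4 groups, with 3 arrays each, were A375 with vemurafenib, A375 with DMSO, A2058 with vemurafenib and A2058 with DMSO. The labels give 1 µM vemurafenib over 72 h with renewal every 24 h, and an equal volume of DMSO for controls. That text names A375p alone, although it accompanies all 12 samples, so for A2058 the dose and duration are taken from shared text.

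Complexes I to IV pass electrons from NADH and succinate to oxygen, complexes I, III and IV pump protons across the inner mitochondrial membrane on the way, and complex V, the ATP synthase, uses the proton gradient to make ATP. The TCA cycle and pyruvate dehydrogenase supply those electrons. PGC-1 alpha is a transcriptional coactivator that raises many of these genes together through ESRRA, NRF1 and other factors, and in melanoma its gene is a known target of MITF, the melanocyte lineage factor; melanoma lines are known to fall into PGC-1 alpha high and low classes.

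The promoter letters of 3 genes are shown because PPARGC1A and IDH2 had the largest vemurafenib changes among the genes in A2058, and UQCRC1 fell in both lines while its window holds the core recognised by NRF1. Each line holds the 250 bases before a RefSeq gene start (assembly GRCh38.p14), written 5′ to 3′ on the gene's own strand, with a motif match in capitals. The first PPARGC1A window lies at chr4:23881102-23881351 (minus strand) and the second at chr4:24472906-24473155 (minus strand), IDH2 at chr15:90100622-90100871 (minus strand) and UQCRC1 at chr3:48609647-48609896 (minus strand). First and second give only the order of the lines, and the second start lies upstream of the first on the gene's strand. Only windows with the named match are shown. Capitals mark the M-box core letters CATGTG in the first PPARGC1A line and in IDH2, the E-box letters CACGTG in the second PPARGC1A line, and the NRF1 core, read on the opposite strand, in UQCRC1. For the M-box these core letters alone were matched, without the bases beside them, so a match is not a full M-box.
PPARGC1A, first start: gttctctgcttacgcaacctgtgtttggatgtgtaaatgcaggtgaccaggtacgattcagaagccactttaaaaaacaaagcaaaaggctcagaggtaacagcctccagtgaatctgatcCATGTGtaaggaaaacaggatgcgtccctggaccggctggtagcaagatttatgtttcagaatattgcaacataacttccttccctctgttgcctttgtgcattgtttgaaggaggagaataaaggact
PPARGC1A, second start: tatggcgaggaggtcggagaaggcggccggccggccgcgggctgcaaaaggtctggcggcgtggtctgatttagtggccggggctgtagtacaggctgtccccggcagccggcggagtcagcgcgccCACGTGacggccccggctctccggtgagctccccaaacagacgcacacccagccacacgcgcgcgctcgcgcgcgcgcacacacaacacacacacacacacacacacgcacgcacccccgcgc
IDH2: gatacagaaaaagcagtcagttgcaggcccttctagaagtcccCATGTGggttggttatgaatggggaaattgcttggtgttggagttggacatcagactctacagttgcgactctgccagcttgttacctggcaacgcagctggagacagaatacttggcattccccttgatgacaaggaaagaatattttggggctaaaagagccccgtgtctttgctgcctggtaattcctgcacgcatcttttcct
UQCRC1: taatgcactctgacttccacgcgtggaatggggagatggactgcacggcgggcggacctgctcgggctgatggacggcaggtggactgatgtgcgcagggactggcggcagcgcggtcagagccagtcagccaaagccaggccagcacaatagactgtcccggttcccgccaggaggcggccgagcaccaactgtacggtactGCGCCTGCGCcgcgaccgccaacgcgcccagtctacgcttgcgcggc

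Both strands of the windows were searched for 5 motifs; 40 of the 49 genes matched the table, in 45 windows, beside 22198 windows of all protein-coding genes. The NRF1 core, the letters in capitals in the UQCRC1 line with 1 base at its centre left free, stood in 10 of the 45 windows (22.2%, against 6.56% of all windows), the ETS core CCGGAAG bound by GABPA in 9 (20%, against 10.7%) and the estrogen-related receptor motif AAGGTCA in 3 (6.67%, against 2.87%). The M-box core letters stood in 4 windows (8.89%, against 7.6%) and the E-box letters in 4 (8.89%, against 7.37%), and neither search overlaps the other. The genes with the M-box core letters were ESRRA, IDH2, NDUFB8 and PPARGC1A, which did not move alike: IDH2 and PPARGC1A rose with vemurafenib in A2058, NDUFB8 fell in both lines and ESRRA was not called in either. The 10 genes with the NRF1 core were ATP5F1C, ATP5PO, ESRRA, IDH3A, NDUFA9, SDHA, SDHD, SUCLA2, TFAM and UQCRC1. A match is a run of letters in the reference, and no binding was measured.

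Values are log2 expression levels as deposited, and a change is a difference of group means with its standard error from limma; a gene was called at a Benjamini-Hochberg adjusted p under 0.05 over all 18404 genes. Array pairs within a group correlated at 0.9978 to 0.9989, except that A375 vemurafenib replicate 1 correlated at 0.9939 and 0.9941 with the others of its group, and vemurafenib calls among the 49 genes that change without it are given with and without it. The labels do not say whether the 3 arrays of a group came from separate cultures, so p-values measure the spread between these arrays, which may be technical. In RNA from whole cultures, fewer cells of a kind and less RNA per cell cannot be told apart. Of 9 measured melanocyte lineage markers, 4 rose and 2 fell with vemurafenib in A375 and 7 rose in A2058; their mean level was 6.84 to 6.93 with vemurafenib and 6.66 to 6.73 with DMSO in A375, and 9.41 to 9.43 with vemurafenib and 8.22 to 8.28 with DMSO in A2058. SOX10 lay between 9.17 and 9.60 over all 12 arrays, whereas PMEL lay between 4.92 and 5.18 in A375 in both media. Markers of blood and immune, epithelial, endothelial and fibroblast cells had mean levels from 4.72 to 6.05, and in A375 1 of 4, 2 of 5, 0 of 5 (also at an unadjusted p under 0.05, by limma) and 3 of 6 of them were called with vemurafenib, against 1 of each list in A2058. Of all genes, 37.0% were called in A375 and 27.1% in A2058. Single markers moved past 2-fold. The largest blood and immune change was -1.27 in A375 and -2.12 in A2058, and the largest epithelial change -1.79 and -1.41. The largest fibroblast change was 2.15, in A375. An array has no zero, and the part of these markers in the results was not tested.

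In the main fit, the share of these genes changed by vemurafenib lay below that of all genes in A375 and above it in A2058. Neither order held in every alternative, as given below. In A375, 16 of the 49 were called, 9 higher and 7 lower, which is 32.7% against 37.0% of all genes, and their median change was -0.002 (all genes, 0.004). In A2058, 17 were called, 12 higher and 5 lower, which is 34.7% against 27.1%, with a median change of 0.063 (all genes, 0.006). With the dimmest 25% of genes left out, 16 of the 49 were called in A2058 (32.7%), against 35.7% of the genes kept. The order in A2058 thus turned round. In A375 13 were called in that fit, against 47.4%. None of the 49 changed 2-fold in either line, whereas 4.20% of all genes did in A375 and 1.98% in A2058. The treated and control arrays did not overlap for 20 of the genes in A375 (40.8%, against 43.6% of all genes) and for 29 in A2058 (59.2%, against 40.6%). These shares were not recounted with the dimmest genes left out.

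The split between rises and falls moved with scaling. With each array centred on its median, 4 rose and 6 fell in A375, and 6 rose and 5 fell in A2058 (against 24.0% of all genes called). After quantile normalization 11 rose and 5 fell in A375 (against 38.4%), and 16 rose and 5 fell in A2058 (against 28.2%). In A375 the 10 centred calls stand against 34.8% of all genes, and with only the 6 A375 arrays 9 were called, against 32.7%. With arrays weighted by their spread the counts were 24 in A375 (against 44.2% of all genes) and 23 in A2058 (against 34.7%). The A375 count was 10 when A375 DMSO replicate 1, A375 DMSO replicate 2 or A375 vemurafenib replicate 3 was left out, and 21, with 13 higher and 8 lower, without A375 vemurafenib replicate 1. Calls held in every alternative run for 9 genes in A375 (NRF1, NDUFA9, NDUFB5, NDUFB8, NDUFB9, UQCRC1, CYCS, ATP5F1A and DLAT) and for 9 in A2058 (PPARGC1A, NDUFB8, UQCRC1, UQCRB, CYC1, COX6C, COX8A, IDH2 and PDHA1), and the other calls were lost in at least 1.

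**Figure D1:**
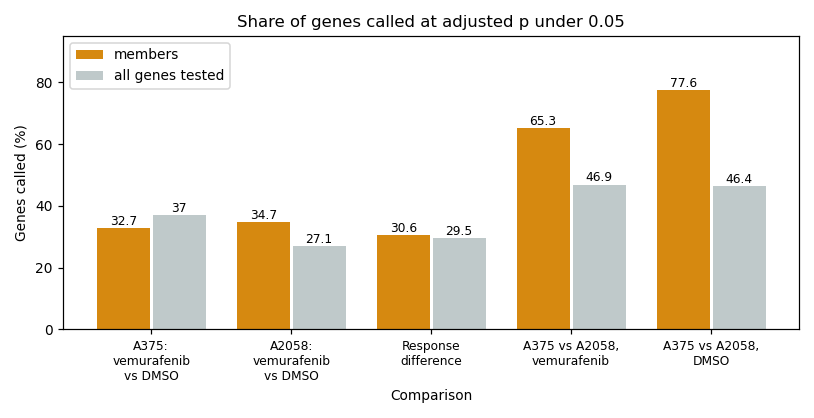
Share of genes called at an adjusted p under 0.05 (vertical axis, percent) in each comparison, with orange bars for the 49 respiration genes and grey bars for all 18404 genes. Bars show the main fit. The orange bar is shorter than the grey for vemurafenib in A375 and taller in A2058, orders that did not hold in every alternative. It is taller between the lines, at 77.6% against 46.4% in DMSO.

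Vemurafenib changed 4 of the genes in both lines. NDUFA2, an accessory subunit of complex I, rose in each, and NDUFB8, UQCRC1 and CYC1 fell in each. Called in A375 and not in A2058 were 8 rises and 4 falls, and called in A2058 and not in A375 were 11 rises and 2 falls. No gene was called in opposite directions, and 20 were called in neither. Such joint counts were not made over all genes, so whether they are particular to these genes is not known. Because a call in a single line does not show that the lines differ, the difference of the responses (A375 minus A2058) was tested directly: 15 of the 49 differed (30.6%, against 29.5% of all genes), 4 with a higher response in A375 and 11 with a lower, and 0 of them past 2-fold (4.19% of all genes).

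**Figure D2:**
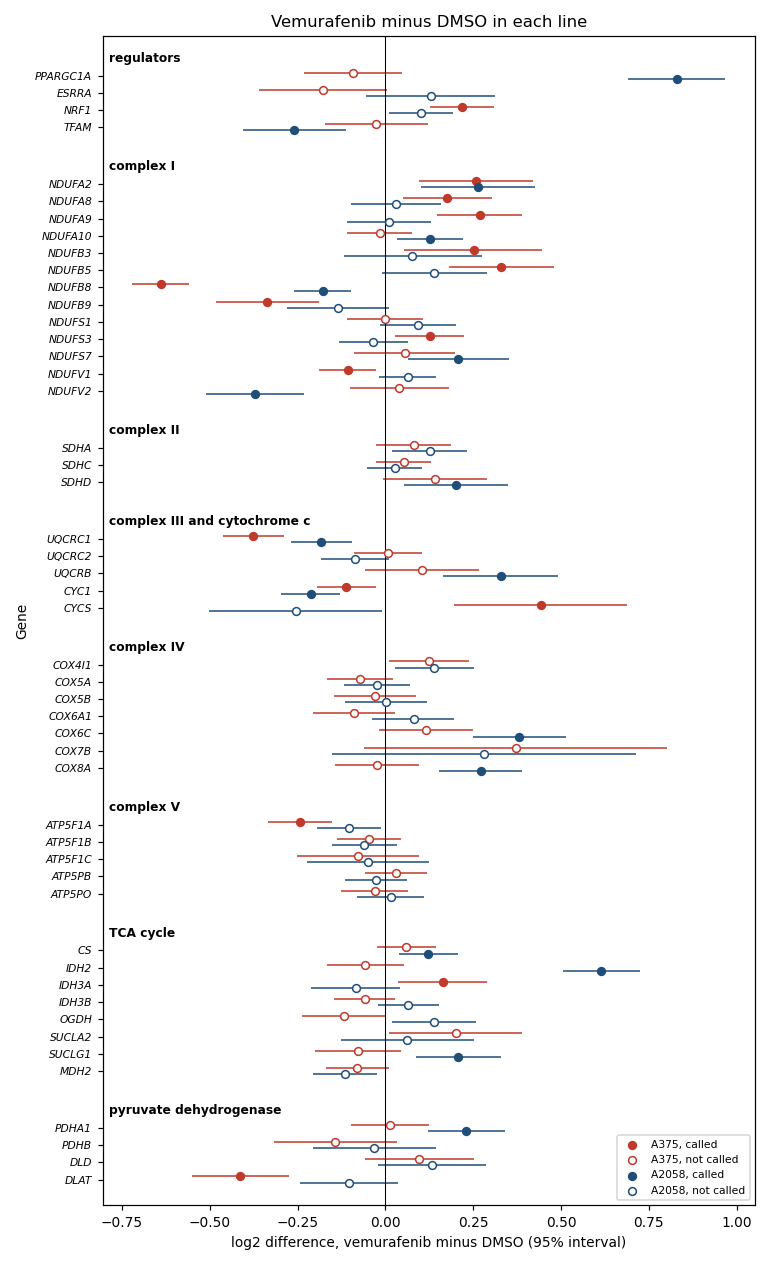
Log2 change with vemurafenib (horizontal axis, vemurafenib minus DMSO, with 95% intervals) for each of the 49 genes, ordered by role, in A375 and A2058; filled points were called and open points were not. PPARGC1A (0.83) and IDH2 (0.62) lie farthest to the right in A2058, and NDUFB8 (-0.64) farthest to the left in A375.

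Among the regulators, PPARGC1A separated the lines most and rose with vemurafenib in A2058. It read 5.16, 4.98 and 5.20 in A375 with vemurafenib, against 5.13, 5.26 and 5.23 in A375 with DMSO. In A2058 it read 8.77, 8.72 and 8.61 with vemurafenib, against 7.92, 7.81 and 7.88 with DMSO. The A375 arrays overlap between media and all lie far below every A2058 array, while in A2058 the 3 treated arrays lie above the 3 controls. The change was 0.83 ± 0.06 in A2058, a 1.78-fold rise (adjusted p = 6.38e-07), and -0.09 ± 0.06 in A375 (adjusted p = 0.324; 95% interval -0.23 to 0.05), and the responses differed by -0.92 ± 0.09 (adjusted p = 5.7e-06). No detection call was at hand, so whether the A375 level stands above background is not known here, and a change at that level, or a fold against it, would be understated.

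The partner factors had smaller changes. NRF1, nuclear respiratory factor 1, which binds promoters of respiratory chain genes, read 5.78, 5.81 and 5.72 in A375 with vemurafenib, against 5.52, 5.60 and 5.53 with DMSO, with no overlap (0.22 ± 0.04, adjusted p = 0.00104); in A2058 its change was 0.10 ± 0.04 (adjusted p = 0.102). TFAM, which packages mitochondrial DNA and activates its transcription, read 7.70, 7.63 and 7.54 in A2058 with vemurafenib, against 7.94, 7.87 and 7.83 with DMSO, a fall of all 3 arrays below the controls (-0.26 ± 0.07, adjusted p = 0.0113). In A375 its change was -0.03 ± 0.07. ESRRA, the orphan receptor through which PGC-1 alpha acts on many of these genes, changed by -0.18 ± 0.08 in A375 and 0.13 ± 0.08 in A2058, and its treated and control arrays overlap in both lines. Without A375 vemurafenib replicate 1, as without A375 DMSO replicate 3, ESRRA was called lower in A375 (-0.24, adjusted p = 0.035, and -0.27, adjusted p = 0.0133).

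**Figure D3:**
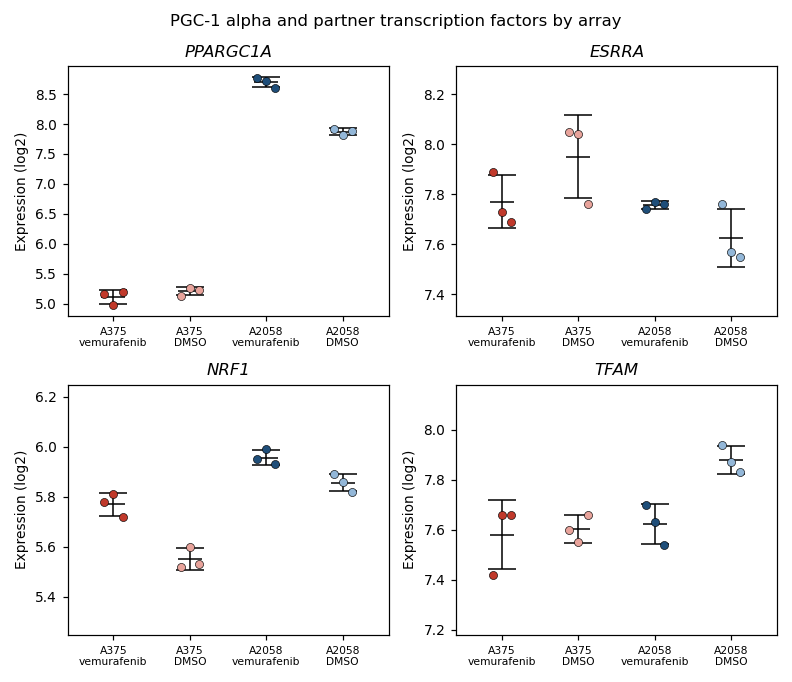
Log2 expression of PPARGC1A, ESRRA, NRF1 and TFAM (vertical axes, each with its own range) on the 12 arrays; points are arrays and bars the group mean and SD (n = 3). PPARGC1A lies between 4.98 and 5.26 in A375 and between 7.81 and 8.77 in A2058, with vemurafenib above DMSO in A2058.

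Complex I, the NADH dehydrogenase that admits most electrons to the chain, had calls in both directions in both lines: 6 higher and 3 lower of 13 in A375, and 3 higher and 2 lower in A2058, which is 69.2% (against 37.0% of all genes) and 38.5% (against 27.1%). With each array centred on its median the counts were 2 higher and 2 lower in A375 and 0 higher and 2 lower in A2058, and after quantile normalization 5 higher and 2 lower in A375 and 4 higher and 2 lower in A2058. Over all genes the centred fit called 34.8% in A375 and 24.0% in A2058, and the quantile fit 38.4% and 28.2%. NDUFB8, an accessory subunit, had the largest fall of these genes in A375. It read 9.80, 9.80 and 9.76 in A375 with vemurafenib, against 10.41, 10.43 and 10.45 with DMSO, a gap many times the spread of either group (-0.64 ± 0.04, adjusted p = 2.04e-08). In A2058 it read 9.75, 9.72 and 9.77 with vemurafenib, against 9.97, 9.90 and 9.90 with DMSO, again without overlap but closer (-0.18 ± 0.04, adjusted p = 0.00254). The responses differed by -0.46 ± 0.05 (adjusted p = 2.11e-05). NDUFB9, another accessory subunit, fell by 0.34 in A375 (adjusted p = 0.00133) and changed by -0.14 ± 0.07 in A2058 (adjusted p = 0.186).

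Rises in complex I were smaller. NDUFB5, an accessory subunit of the membrane arm, read 9.57, 9.82 and 9.82 in A375 with vemurafenib, against 9.41, 9.39 and 9.41 with DMSO (0.33 ± 0.07, adjusted p = 0.0018); in A2058 its change was 0.14 ± 0.07 (adjusted p = 0.183, and 0.0402 without A375 vemurafenib replicate 1). NDUFA9 rose by 0.27 ± 0.06 in A375 (adjusted p = 0.00166), and its change in A2058 was 0.01 ± 0.06; that difference was called (0.26 ± 0.08, adjusted p = 0.0238). NDUFA2 rose by 0.26 ± 0.07 in A375 and 0.26 ± 0.07 in A2058. Its A375 arrays of 8.70, 9.08 and 8.88 with vemurafenib lay above 8.66, 8.62 and 8.60 with DMSO, though the lowest treated array, replicate 1, was close to the controls. NDUFA8, NDUFB3 and NDUFS3 were the other rises in A375 (0.13 to 0.25), and NDUFA10 (0.13) and NDUFS7 (0.21) those in A2058. The A375 calls held in 14, 8 and 8 of 20 alternatives, and the A2058 calls in 8 and 11. NDUFB3 groups overlap in A375, with 5.64 in vemurafenib replicate 1 against 5.65 in DMSO replicate 2. NDUFV1, which holds the NADH binding site, changed by -0.11 ± 0.04 in A375 (adjusted p = 0.0388), a call lost in 12 of the alternatives, among them the fit without A375 vemurafenib replicate 1 (adjusted p = 0.0792).

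NDUFV2, the partner of NDUFV1 in the electron input module, read 9.71, 9.70 and 9.47 in A2058 with vemurafenib, against 10.01, 9.93 and 10.06 with DMSO (-0.37 ± 0.06, adjusted p = 0.000738). Its change in A375 was 0.04 ± 0.06, and the responses differed by 0.41 ± 0.09 (adjusted p = 0.00398). That difference was called in 18 of 19 alternatives, with a highest adjusted p of 0.423. A second probe set annotated to NDUFV2 gave -0.69 in A2058 with an adjusted p of 0.189, so the 2 probe sets point the same way but differ in size and in the call. The NDUFV2 probe set used may read a copy elsewhere in the genome, as given below. NDUFS1, which carries most of the iron-sulfur centres of the input module, was called in neither line (-0.002 ± 0.05 in A375 and 0.09 ± 0.05 in A2058).

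Complex II, succinate dehydrogenase, which is shared by the TCA cycle and the chain, had 0 of 3 genes called by limma in A375 (against 37.0% of all genes). In that line 0 had an unadjusted p under 0.05. In A2058 1 was called (33.3%, against 27.1% of all genes). SDHD, a membrane anchor, read 10.36, 10.28 and 10.52 in A2058 with vemurafenib, against 10.20, 10.17 and 10.19 with DMSO (0.20 ± 0.07, adjusted p = 0.0467), a call lost with several single arrays left out (highest adjusted p, 0.201), and its second probe set gave 0.155 with an adjusted p of 0.053. In A375 SDHD changed by 0.14 ± 0.07 (adjusted p = 0.139), and it was called without A375 vemurafenib replicate 1 (0.21, adjusted p = 0.0119), with array weights, with its second probe set and with the mean of both. The probe sets used for SDHC and SDHD may read copies elsewhere in the genome, as given below. SDHA, the flavoprotein that oxidises succinate, changed by 0.08 ± 0.05 in A375 and 0.13 ± 0.05 in A2058, below the threshold in both.

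Complex III passes electrons to cytochrome c. Its core subunit UQCRC1 read 7.67, 7.64 and 7.60 in A375 with vemurafenib, against 8.02, 8.04 and 7.99 with DMSO (-0.38 ± 0.04, adjusted p = 6.21e-06). In A2058 it read 8.03, 8.05 and 8.10 with vemurafenib, against 8.20, 8.26 and 8.28 with DMSO (-0.18 ± 0.04, adjusted p = 0.00366). Groups did not overlap in either line, and the fall was larger in A375 (difference -0.19 ± 0.06, adjusted p = 0.0194). CYC1, the cytochrome c1 of the complex, fell by 0.11 in A375 (adjusted p = 0.0373) and by 0.21 in A2058 (adjusted p = 0.000971). The other core subunit, UQCRC2, was called in neither line, and UQCRB, a small accessory subunit with levels near the low end of the array's range (4.59 to 5.35), rose by 0.33 ± 0.07 in A2058 (adjusted p = 0.00511).

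CYCS, cytochrome c itself, responded differently in the lines. It read 7.91, 8.21 and 8.41 in A375 with vemurafenib, against 7.69, 7.77 and 7.74 with DMSO, higher on every treated array (0.44 ± 0.11, adjusted p = 0.0073). In A2058 it read 8.75, 8.64 and 8.74 with vemurafenib, against 9.05, 8.74 and 9.10 with DMSO, where the arrays overlap in range (-0.26 ± 0.11, adjusted p = 0.13); without A375 vemurafenib replicate 1 that fall was called (adjusted p = 0.0285). The responses differed by 0.70 ± 0.16 (adjusted p = 0.00495). RefSeq names 45 pseudogenes after CYCS, 18 after COX6C, 7 after SDHD, 6 after COX6A1, 5 after SDHC and 1 after NDUFV2. Of the 49 genes, 29 have at least 1, so probes of these genes may also read near-identical copies, and their values are uncertain for that reason. SDHD, COX6A1, SDHC and NDUFV2 each had 2 probe sets. The one with the higher mean was used, and its genomic position was not checked. Identifiers of the other probe sets used for the 49 genes run in chromosome order. Those used for NDUFV2, SDHC and SDHD fall outside the run of their gene's chromosome. Their values may therefore belong to copies elsewhere in the genome.

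Complex IV, cytochrome c oxidase, had 0 of 7 genes called by limma in A375 (against 37.0% of all genes), where 1 had an unadjusted p under 0.05. It had 2 rises in A2058 (28.6%, against 27.1% of all genes). COX6C read 9.51, 9.48 and 9.40 in A2058 with vemurafenib, against 9.16, 8.97 and 9.12 with DMSO (0.38 ± 0.06, adjusted p = 0.000401). COX8A read 10.90, 10.95 and 11.00 with vemurafenib, against 10.68, 10.70 and 10.67 with DMSO (0.27 ± 0.05, adjusted p = 0.00222). Both are small nuclear-encoded subunits, their treated and control arrays in A2058 do not overlap, and their responses were higher in A2058 than in A375 (differences -0.27 ± 0.09 and -0.29 ± 0.08). COX4I1, COX5A, COX5B and COX6A1 changed by -0.09 to 0.14 in the 2 lines without a call; without A375 vemurafenib replicate 1, COX6A1 was called lower in A375 (-0.15, adjusted p = 0.0193). COX7B had the widest spread of all 49 genes, with an SE of 0.20 in each line; it read 6.90 in A375 vemurafenib replicate 1, against 7.65 and 7.59 in the other treated A375 arrays, and was called higher without that array (0.61, adjusted p = 0.00638) or with arrays weighted by their quality.

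Of complex V, ATP5F1A, the alpha subunit of the catalytic head, fell in A375: it read 9.53, 9.61 and 9.65 with vemurafenib, against 9.86, 9.81 and 9.86 with DMSO (-0.24 ± 0.04, adjusted p = 0.000445), and changed by -0.10 ± 0.04 in A2058 (adjusted p = 0.0941, and 0.0468 without A375 vemurafenib replicate 1). ATP5F1B, the catalytic beta subunit beside it, was called in neither line (-0.05 ± 0.04, 95% interval -0.14 to 0.04, in A375 and -0.06 ± 0.04, interval -0.15 to 0.03, in A2058). ATP5F1C, ATP5PB and ATP5PO, subunits of the stalks, lay between -0.08 and 0.03 and were not called.

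**Figure D4:**
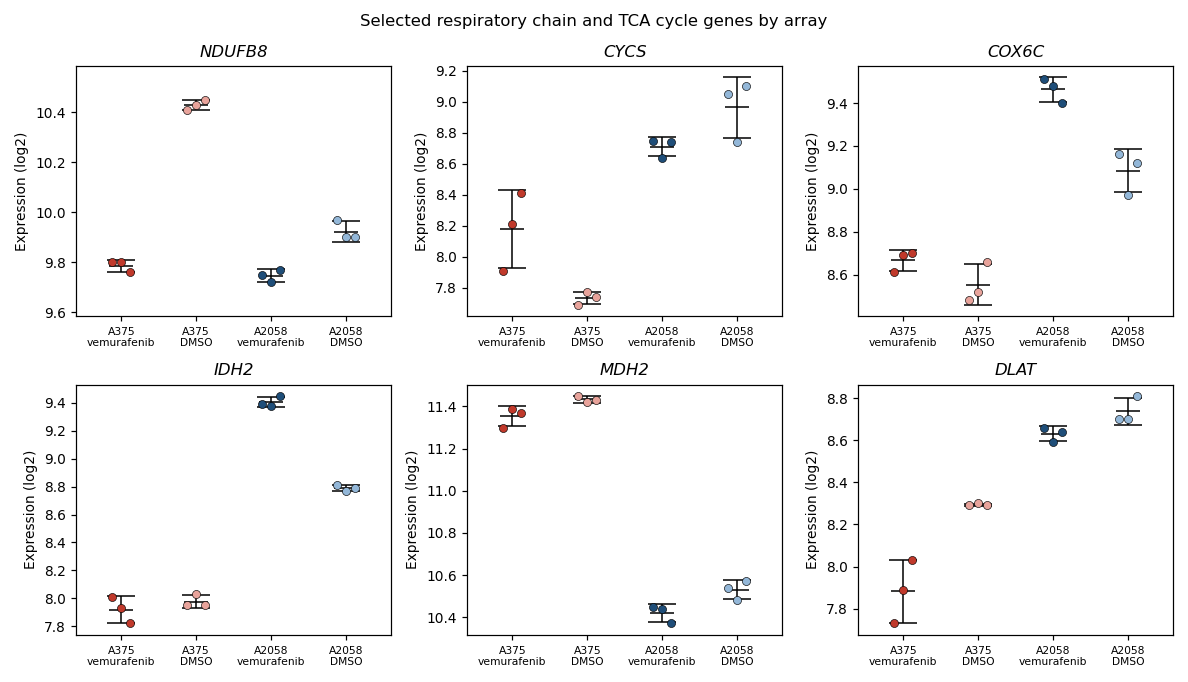
Log2 expression on the 12 arrays (vertical axes, each with its own range) of selected respiration genes; points are arrays and bars the group mean and SD (n = 3). IDH2 is at 9.38 to 9.45 with vemurafenib and 8.77 to 8.81 with DMSO in A2058, and NDUFB8 at 9.76 to 9.80 with vemurafenib and 10.41 to 10.45 with DMSO in A375.

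In the TCA cycle 1 of 8 genes was called in A375 (12.5%, against 37.0% of all genes) and 3 in A2058 (37.5%, against 27.1%), all of them rises. IDH2, the NADP-dependent mitochondrial isocitrate dehydrogenase, read 9.39, 9.38 and 9.45 in A2058 with vemurafenib, against 8.81, 8.77 and 8.79 with DMSO. That is a 1.53-fold rise with wide separation (0.62 ± 0.05, adjusted p = 1.05e-06). In A375 it read 8.01, 7.93 and 7.82 with vemurafenib, against 7.95, 8.03 and 7.95 with DMSO, overlapping values (-0.06 ± 0.05, adjusted p = 0.461; 95% interval -0.165 to 0.05). The responses differed by -0.67 ± 0.07 (adjusted p = 1.06e-05), the widest gap in that direction after PPARGC1A among the 49 genes. IDH3A, the catalytic subunit of the NAD-dependent enzyme at the same step, rose by 0.16 ± 0.06 in A375 (adjusted p = 0.043) and changed by -0.085 ± 0.06 in A2058; these responses also differed (0.25 ± 0.08, adjusted p = 0.0378), in the other direction.

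SUCLG1, the alpha subunit of succinyl-CoA synthetase, rose by 0.21 ± 0.06 in A2058 (adjusted p = 0.0137) and changed by -0.08 ± 0.06 in A375 (adjusted p = 0.343). CS, citrate synthase, which starts the cycle, rose by 0.12 ± 0.04 in A2058 (adjusted p = 0.0335) and changed by 0.06 ± 0.04 in A375 (adjusted p = 0.285). OGDH, of the 2-oxoglutarate dehydrogenase complex, was called in neither line, though its responses differed (-0.26 ± 0.08, adjusted p = 0.0232). IDH3B, SUCLA2 and MDH2 were not called in either line; without A375 vemurafenib replicate 1, SUCLA2 was called higher in A375 (0.32, adjusted p = 0.000714) and MDH2 lower in A2058 (adjusted p = 0.0347). With each array centred on its median, the IDH3A call was lost (adjusted p = 0.183) and 1 TCA gene was called in A2058 (against 24.0% of all genes).

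Pyruvate dehydrogenase links glycolysis to the cycle. DLAT, its acetyltransferase core, read 7.73, 7.89 and 8.03 in A375 with vemurafenib, against 8.29, 8.30 and 8.29 with DMSO, well below every control (-0.41 ± 0.06, adjusted p = 0.000173). In A2058 its change was -0.10 ± 0.06 (adjusted p = 0.306), and the responses differed by -0.31 ± 0.09 (adjusted p = 0.0198). PDHA1, the catalytic alpha subunit whose phosphorylation shuts the enzyme down, read 8.77, 8.74 and 8.76 in A2058 with vemurafenib, against 8.55, 8.54 and 8.49 with DMSO (0.23 ± 0.05, adjusted p = 0.00398), and changed by 0.01 ± 0.05 in A375. PDHB and DLD, the E1 beta and E3 subunits, were called in neither line; without A375 vemurafenib replicate 1, DLD was called higher in A375 (0.18, adjusted p = 0.0169).

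The lines themselves differed far more often than vemurafenib changed them. With DMSO, 38 of the 49 genes were called between A375 and A2058 (77.6%, against 46.4% of all genes), 13 higher in A375 and 25 lower, with a median difference of -0.13 (A375 minus A2058). With the dimmest 25% of genes left out, 37 were called against 58.6% of the rest. In vemurafenib 32 were called (65.3%, against 46.9%), 9 higher in A375 and 23 lower. With the dimmest 25% of genes left out, 32 were called there too, against 59.0% of the genes kept, a smaller gap. Arrays of the lines did not overlap for 41 of the genes with DMSO (83.7%, against 56.8% of all genes) and for 33 with vemurafenib (67.3%, against 51.2%). The median size of a line difference with DMSO was 0.279, against 0.104 for the vemurafenib change in A375 and 0.126 in A2058. Over all genes these medians were 0.137, 0.102 and 0.077. In 33 of the 49 genes the line difference exceeded both changes, a count that was not made over all genes.

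PPARGC1A had the largest measured line difference of the 49. It was 6.33-fold lower in A375 with DMSO (-2.66 ± 0.06, adjusted p = 4.1e-12) and 12-fold lower with vemurafenib (-3.58 ± 0.06, adjusted p = 1.75e-13), folds that are lower bounds if the A375 level is background. CYCS was 2.34-fold lower in A375 with DMSO (-1.23 ± 0.11, adjusted p = 1.15e-06), and IDH2 was 2.8-fold lower with vemurafenib (-1.48 ± 0.05, adjusted p = 7.08e-11), against -0.81 ± 0.05 with DMSO. These were the genes past 2-fold between the lines, whereas 6.37% of all genes were called past 2-fold with DMSO and 7.23% with vemurafenib. Enzymes of the cycle and of pyruvate dehydrogenase differed in both directions. MDH2, malate dehydrogenase, read 11.45, 11.42 and 11.43 in A375 with DMSO, against 10.54, 10.48 and 10.57 in A2058 (0.90 ± 0.04, adjusted p = 1.84e-09), and PDHB (0.59 ± 0.08) and IDH3B (0.51 ± 0.04) were also higher in A375. DLD (-0.72 ± 0.07), DLAT (-0.44 ± 0.06) and SUCLA2 (-0.62 ± 0.09) were lower.

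The counts by complex with DMSO stand beside 46.4% of all genes called, 23.9% higher in A375 and 22.5% lower. In complex III with cytochrome c, 5 of 5 genes were called lower in A375 with DMSO. It was 4 of 5 with each array centred on its median (44.5% of all genes called) or after quantile normalization (47.5%). The UQCRB call (adjusted p = 0.0492) was lost there. That call was also lost with several single arrays left out (highest adjusted p, 0.191). In complex II 1 of 3 (33.3%) and in complex V 2 of 5 (40.0%) were called lower in A375, and none higher. Both shares called lay below the 46.4% of all genes. In complex I, 5 were higher in A375 and 6 lower: NDUFB8 (0.50 ± 0.04), NDUFS7 (0.40 ± 0.07), NDUFA2 (0.35 ± 0.07), NDUFV1 (0.31 ± 0.04) and NDUFS3 (0.16 ± 0.05) against NDUFB3 (-0.76 ± 0.09), NDUFA10 (-0.52 ± 0.04), NDUFS1 (-0.46 ± 0.05), NDUFV2, NDUFB5 and NDUFA8. The NDUFV2 value may belong to a copy, as given above. SDHA was lower in A375 (-0.57 ± 0.05, adjusted p = 6.48e-07). Complex IV was higher in A375 for COX4I1, COX5B and COX6A1 (0.14 to 0.19) and lower for COX6C (-0.53 ± 0.06). Across both media, 9 genes were higher in A375 each time, 19 were lower each time, 7 were called in neither and none turned round. The matching counts over all genes were not made. NDUFB8 was higher in A375 with DMSO and not called between the lines under vemurafenib (0.04 ± 0.04, adjusted p = 0.432).

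**Figure D5:**
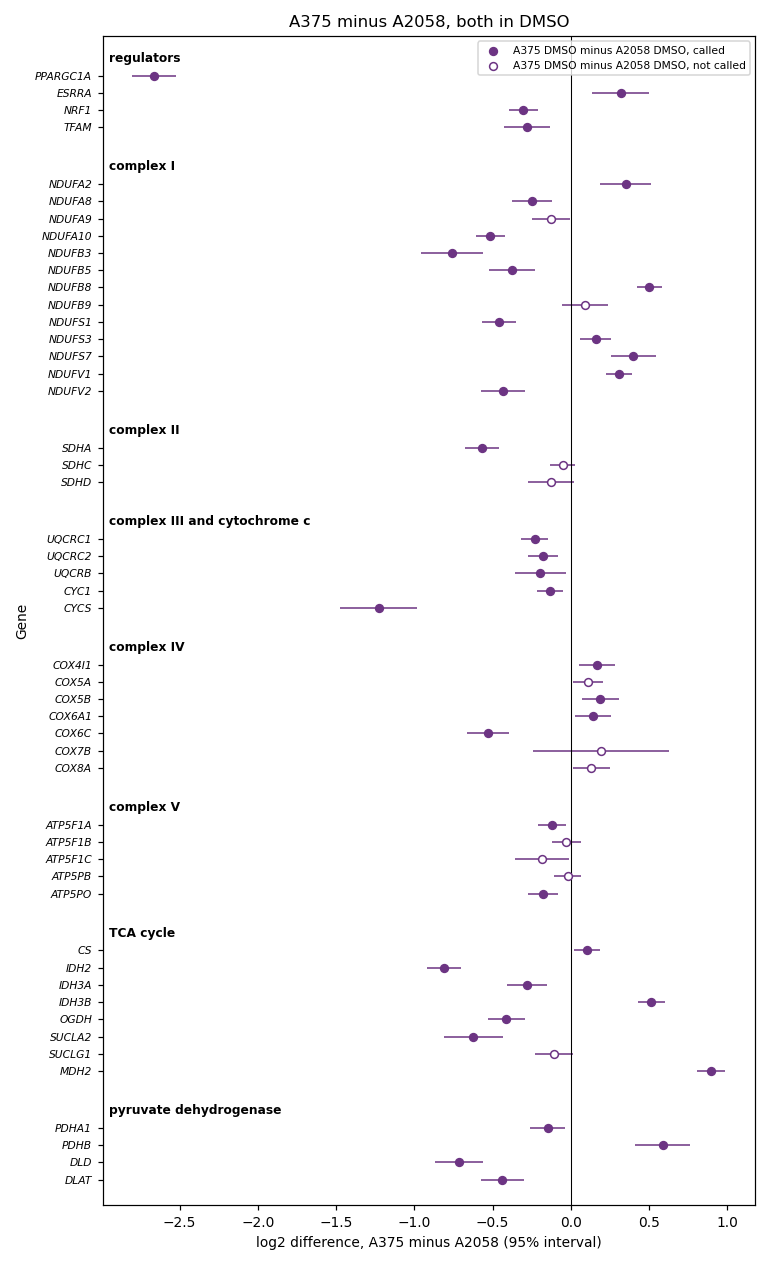
Log2 difference between the lines with DMSO (horizontal axis, A375 minus A2058, with 95% intervals) for the 49 genes by role; filled points were called and open points were not. PPARGC1A (-2.66) and CYCS (-1.23) lie farthest to the left and MDH2 (0.90) farthest to the right.

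The same pathways were followed in lists of further genes, whose counts stand beside 37.0% of all genes called in A375 and 27.1% in A2058. Of 42 other subunits of complexes I to V, 10 rose and 2 fell in A375 (median 0.08), and 1 rose and 8 fell in A2058 (median 0.01); their responses differed in 8 (19.0%, against 29.5% of all genes), all with a higher response in A375. The largest rises in A375 were UQCR10 (0.41 ± 0.04) and NDUFA1 (0.33 ± 0.06), and the falls were ATP5F1D (-0.29 ± 0.06) and NDUFB10 (-0.15 ± 0.05). In A2058 NDUFB2 rose (0.18 ± 0.04), as it did in A375 (0.27 ± 0.04), and the largest falls were NDUFAB1 (-0.34 ± 0.09) and NDUFB10 (-0.26 ± 0.05). Without A375 vemurafenib replicate 1, 15 rose and 2 fell in A375, and 6 rose and 9 fell in A2058. After quantile normalization, 3 rose and 6 fell in A2058. Over all genes, 42.3% in A375 and 32.3% in A2058 were called without that array, and 28.2% in A2058 after quantile normalization.

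Of 18 measured genes for pyruvate entry, pyruvate dehydrogenase control and the rest of the cycle, 3 rose and 11 fell in A375 (median -0.22), and 6 rose and 4 fell in A2058 (median -0.002). PDK1, a kinase that switches pyruvate dehydrogenase off, read 7.15, 7.31 and 7.27 in A375 with vemurafenib, against 10.05, 9.98 and 10.03 with DMSO (-2.78 ± 0.05, adjusted p = 3.15e-13). In A2058 it read 8.43, 8.46 and 8.45 with vemurafenib, against 9.86, 9.79 and 9.91 with DMSO (-1.40 ± 0.05, adjusted p = 4.84e-10). PDK4, another kinase of this family, fell by 1.15 in A375 and by 0.88 in A2058. PDP1, the phosphatase that switches the enzyme back on, rose by 0.52 ± 0.03 in A375 and 0.66 ± 0.03 in A2058, and MPC1, of the mitochondrial pyruvate carrier, rose by 0.52 ± 0.07 in A375 and 0.48 ± 0.07 in A2058. PDK2 rose in A2058 (0.71 ± 0.05, adjusted p = 1.67e-07) and fell in A375 (-0.32 ± 0.05, adjusted p = 0.000111), with arrays of 7.95, 8.05 and 7.87 with vemurafenib and 8.25, 8.31 and 8.27 with DMSO in A375, and 7.91 on all 3 with vemurafenib against 7.25, 7.15 and 7.20 with DMSO in A2058.

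Of 25 genes for the PGC-1 family, partner factors and mitochondrial DNA expression, 5 rose and 9 fell in A375 (median -0.08), and 4 rose and 10 fell in A2058 (median -0.03). MITF rose by 0.73 ± 0.05 in A375 (9.07, 9.05 and 9.11 with vemurafenib, against 8.29, 8.40 and 8.34 with DMSO) and by 0.73 ± 0.05 in A2058 (10.50, 10.51 and 10.50 with vemurafenib, against 9.68, 9.80 and 9.84 with DMSO). PPARGC1A was called in A2058 alone, with the difference and the limit of its A375 level given above, and a link to MITF was not tested. TFB1M, a methyltransferase that modifies the small ribosomal RNA of mitochondria, read 5.84, 5.97 and 5.89 in A375 with vemurafenib, against 8.51, 8.60 and 8.55 with DMSO (-2.65 ± 0.10, adjusted p = 3.57e-10). In A2058 it read 6.26, 6.15 and 5.80 with vemurafenib, against 8.12, 7.86 and 8.04 with DMSO (-1.94 ± 0.10, adjusted p = 1.72e-08). PRKAA2, a catalytic subunit of the energy sensor AMPK, fell by 1.25 in A375 and by 0.50 in A2058. NFE2L2, the oxidative stress factor NRF2, rose in A375 (0.59 ± 0.06), and PPARD, a nuclear receptor for fatty acids, rose in both lines (0.43 ± 0.06 in A375 and 0.33 ± 0.06 in A2058). PPARGC1B, the paralog of PPARGC1A, was called in neither line (-0.12 ± 0.09 in A375 and -0.05 ± 0.09 in A2058).

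Of 31 assembly factors, 9 rose and 3 fell in A375 (median 0.06), and 2 rose and 3 fell in A2058 (median 0.003). With each array centred on its median, 4 rose and 3 fell in A375, against 34.8% of all genes called. UQCC2, a complex III assembly factor, rose by 0.62 ± 0.04 in A375 (adjusted p = 1.48e-07) and by 0.20 ± 0.04 in A2058 (adjusted p = 0.0038). COX14, for complex IV, rose by 0.585 ± 0.05 in A375 (adjusted p = 1.05e-06), and UQCC1 rose by 0.37 ± 0.06 in A2058 and by 0.195 ± 0.06 in A375 (adjusted p = 0.0309). NDUFAF7 (-0.36 ± 0.08) and COX11 (-0.27 ± 0.05) fell in A375, and NDUFAF4 (-0.285 ± 0.08) and SCO1 (-0.25 ± 0.05) fell in A2058. Of 9 antioxidant and uncoupling genes linked to PGC-1 alpha, 2 rose and 1 fell in A375 (median 0.07), and 2 rose and 1 fell in A2058 (median -0.003). SOD2, the manganese superoxide dismutase of mitochondria, rose by 1.01 ± 0.07 in A375 and by 0.31 ± 0.07 in A2058. A link of these genes to PPARGC1A was not tested. GPX1, a glutathione peroxidase, rose by 0.25 ± 0.05 in A375 and fell by 0.495 in A2058, UCP2, an inner membrane carrier, fell by 0.46 in A375, and TXN2, mitochondrial thioredoxin, rose by 0.15 ± 0.05 in A2058.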

How the data were processed

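The authors deposited log2 expression values for 32321 probe sets on 12 Affymetrix arrays; the log2 scale is inferred from their range, 3.24 to 13.08. Per the submitters' processing notes R 3.0.1 and affy were used; the summary method and genome build were not given in the sources used here. Such values hide a change shared by all genes and compress dim signals, and no depth or detection call was used, so the number of arrays limits the precision. Groups and replicate numbers came from sample titles.

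Of the probe sets, 19158 carried a single symbol in the platform annotation, 1388 carried several and 11775 had none; 19128 were updated by Entrez number through RefSeq's GRCh38.p14 table, leaving 18404 genes. All 12 arrays entered 1 limma fit (limma 3.58.1, R 4.3.3; 4 group means, eBayes moderation with 3.98 prior and 8 residual degrees of freedom, two-sided tests), with p-values adjusted over all genes in each of 5 contrasts. The genes and lists were chosen with earlier results of these data known. From each further list and line, the rule named the 2 largest called changes of each sign, and PPARGC1B, SOX10 and PMEL were chosen after their values were seen.

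On simulated data for 18404 genes, with 50 spiked per size, recovery in A375 was 52% at a log2 change of 0.25 and 96% at 0.5, with 6 false calls (3.33% of calls). In A2058 it was 40% and 94%, with 7 (4.05%). In the data a far larger share of genes was called (37.0% in A375 and 27.1% in A2058). The adjusted threshold is then looser, so the simulated recovery need not hold for the data. Alternatives were each array left out, a replicate block, median centring, quantile normalization, the lowest 25% of genes left out, the mean of a gene's probe sets, array weights, a prior variance by level and only the 6 arrays compared; a gene's other probe set was added after seeing the data.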

Additional observations from a re-analysis of the deposited data

Results flagged for a closer look

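For 15 of the 49 genes the vemurafenib response differed between the lines, tested as the difference of the 2 responses in the limma fit (A375 minus A2058, log2; adjusted p under 0.05). The response was lower in A375 for PPARGC1A (-0.92), IDH2 (-0.67), NDUFB8 (-0.46), DLAT (-0.31), COX8A (-0.29), SUCLG1 (-0.285), COX6C (-0.27), OGDH (-0.26), PDHA1 (-0.22), UQCRC1 (-0.19) and NDUFV1 (-0.17). It was higher in A375 for IDH3A (0.25), NDUFA9 (0.26), NDUFV2 (0.41, from a probe set that may read a copy) and CYCS (0.70). Of these, PPARGC1A, NDUFB8, CYCS, COX8A and IDH2 were called in each of the other fits that were run. Groups of 3 arrays are too small for a test of outlying arrays.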

How the results depend on the processing

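No change of direction occurred for a called gene under any alternative run. Percentages in brackets here are the share of all genes called in the same fit. The count of the 49 genes called for vemurafenib in A375 (16, 37.0%) became 10 with median centring (34.8%) and 9 with only the 6 arrays compared (32.7%). It was 24 with array weights (44.2%), and ranged from 10 (32.8% to 34.6%) to 21 (42.3%) with 1 array left out. In A2058 (17, 27.1%) it became 11 with median centring (24.0%), was 23 with array weights (34.7%), and ranged from 12 (22.7% to 24.2%) to 21 (32.3%). For the difference of responses (15, 29.5%) it became 23 with array weights (37.8%) and 8 with median centring (26.5%). It ranged from 9 (26.7%), without A2058 DMSO replicate 1, to 20 (36.1%), without A375 vemurafenib replicate 1. With 1 array left out, the count between the lines with DMSO (38, 46.4%) ranged from 33 (42.5% to 43.6%) to 41 (50.9%). With vemurafenib (32, 46.9%) it ranged from 27 (43.5% to 44.0%) to 31 (52.6%). Over the other settings the highest count with DMSO was 44 (53.5%), with array weights. The count with vemurafenib ran from 26 (42.5%), with only the 6 arrays compared, to 34 (48.6%), after quantile normalization. Calls held in each of the other fits for 9 of 16 genes in A375, 9 of 17 in A2058, 5 of 15 for the difference, 29 of 38 between the lines with DMSO and 26 of 32 with vemurafenib. With a replicate block the counts were 12 (34.9%), 14 (24.6%) and 14 (26.8%) for A375, A2058 and the difference. Between the lines they were 36 (45.2%) with DMSO and 31 (45.7%) with vemurafenib. Same-numbered arrays correlated at -0.29 to 0.10 in their deviations, so the numbers share only a label. The causes were not tested.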
